A study of Mus musculus with 6 samples.

Results

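The T-cell receptor β chains described here carry a cysteine inside the CDR3, the loop that contacts the peptide. A clonotype is one combination of TRBV, TRBJ and CDR3 residues in 1 library. A member was a clonotype whose CDR3 had no stop or frame mark, began with C, ended with F or W, and held a cysteine at position 5 or later, counting the conserved first cysteine as position 1. The rule found 2204 member rows among 188602 eligible rows (unmarked, from C to F or W), out of 220493 rows in all. The members came to 2185 distinct receptors, since a few were found in more than 1 library.

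The receptors came from C57BL/6 mice that carried MO4, a B16F10 melanoma line that expresses ovalbumin, in both hindlimbs. Each site received 100000 tumor cells on day 0. The right hindlimb was injected around the tumor with 1000000 IFN-α-iPSC-pMCs (myeloid cells made from induced pluripotent stem cells that produce IFN-α) on days 5, 6 and 7 and again on days 12 and 13, and tumor RNA was taken on day 14. The 3 groups were the injected tumor, here the treated tumor, the uninjected tumor of the other limb, here the distant tumor, and the spleen. Each group had 2 libraries, numbered 1 and 2 in the titles, and the series names 2 mice. All the mice bore tumors on both sides and all received the injected cells, so the spleens are not untreated controls and no library came from a mouse without treatment. The files hold receptor sequences only, so the labelled tissues were not checked against marker genes. The libraries held 44472 to 87784 reads in the tumors and 103446 to 145211 reads in the spleens. Eligible clonotypes numbered 6565 to 11195 in the tumors while the spleens held 62571 and 89164.

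The CDR3 of a β chain is assembled where a V gene, a short D gene and a J gene are joined, and nucleotides are removed and added at the joins. The V gene supplies the conserved cysteine and the next few residues, the D gene and the added nucleotides the middle, and the J gene the end with its phenylalanine. A second cysteine is rare in mature T cells. In thymocytes a cysteine at or beside the tip of CDR3 has been linked to strong binding of self peptide-MHC, and cells with such receptors are often deleted or diverted into other lineages.

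The sequences below are leading members with a CDR3 of at most 14 residues, shown because the question of abundance turns on such receptors. Longer ones, and a few others, are named by their genes, length and cysteine position. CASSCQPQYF and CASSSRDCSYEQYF were among the 4 members with most reads in treated tumor 1, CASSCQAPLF and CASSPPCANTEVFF in distant tumor 1, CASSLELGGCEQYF and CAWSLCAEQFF in distant tumor 2, and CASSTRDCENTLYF in spleen 2.
TRBV15/TRBJ2-5: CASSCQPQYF
TRBV12-1/TRBJ2-7: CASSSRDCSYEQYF
TRBV13-1/TRBJ1-5: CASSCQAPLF
TRBV15/TRBJ1-1: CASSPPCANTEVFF
TRBV16/TRBJ2-7: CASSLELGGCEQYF
TRBV31/TRBJ2-1: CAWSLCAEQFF
TRBV15/TRBJ2-4: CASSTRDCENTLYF
The internal cysteine stood at position 5 in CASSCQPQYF and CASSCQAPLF, right behind the residues of the V gene, and at position 10 in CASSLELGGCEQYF, just before residues that TRBJ2-7 can supply. It stood at position 8, in the middle of the loop, in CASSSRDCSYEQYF and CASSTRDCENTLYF.

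Counted by clonotypes, a larger share of the repertoire held an internal cysteine in every tumor library than in either spleen. The share was 2.90% of eligible clonotypes in treated tumor 1 (325 clonotypes, 95% Wilson interval 2.61 to 3.23%) and 3.23% in treated tumor 2 (212 clonotypes, 2.83 to 3.68%). It was 2.54% in distant tumor 1 (251 clonotypes, 2.24 to 2.87%) and 2.11% in distant tumor 2 (194 clonotypes, 1.83 to 2.42%). In the spleens it was 0.737% (461 clonotypes, 0.673 to 0.807%) and 0.853% (761 clonotypes, 0.795 to 0.916%). The tumors did not overlap the spleens, and the treated tumors lay above the distant tumors. These intervals cover counting error only, because PCR reads without molecular identifiers are not independent molecules.

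The mean was 2.69% ± 0.483 (SD, n = 4) in the tumors and 0.795% ± 0.0825 (SD, n = 2) in the spleens, a ratio of 3.39. A two-sided exact permutation test over the libraries gave p = 0.0667, which is the smallest p that 4 libraries against 2 can give, and 0.267 after Benjamini-Hochberg adjustment over the 4 comparisons of shares. The treated tumors averaged 3.07% ± 0.231 (SD, n = 2) and the distant tumors 2.32% ± 0.305 (SD, n = 2), with an exact permutation p of 0.333, the smallest that 2 against 2 can give, and an adjusted p of 0.444. The treated tumor exceeded the distant tumor by 0.366 percentage points for number 1 and by 1.12 points for number 2. The libraries may be technical as well as biological samples, since the labels state only the number of mice, and p-values then measure the spread between these libraries.

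Counted by all reads, the tumors and the spleens overlapped. Members took 0.746% and 0.763% of eligible reads in the treated tumors, 0.456% and 0.579% in the distant tumors, and 0.529% and 0.626% in the spleens. Both treated tumors stood above both distant tumors and both spleens, while distant tumor 1 was the lowest library. Reads follow the number of cells with a receptor and the receptor RNA of each cell, which cannot be told apart in bulk tissue. The tumor mean was 0.636% ± 0.146 (SD, n = 4) and the spleen mean 0.577% ± 0.0685 (SD, n = 2), with an exact permutation p of 0.667 before and after adjustment. The treated mean of 0.755% ± 0.0120 (SD, n = 2) and the distant mean of 0.518% ± 0.0867 (SD, n = 2) gave an exact permutation p of 0.333, adjusted 0.444. The treated tumor exceeded the distant tumor by 0.290 points for number 1 and by 0.185 points for number 2.

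**Figure D1:**
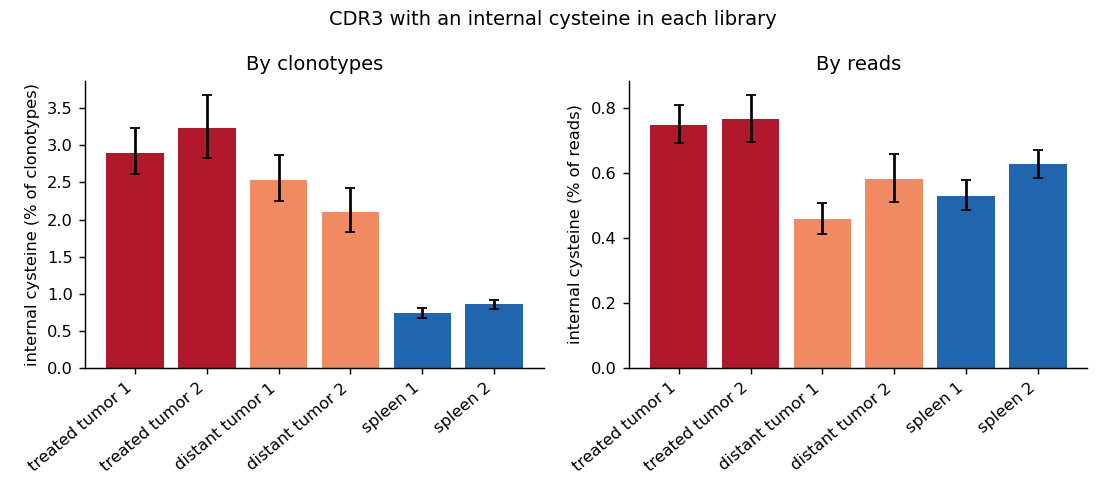
Share of eligible clonotypes (left) and of eligible reads (right) with an internal cysteine in each of the 6 libraries, in percent, with 95% Wilson intervals for counting error. By clonotypes the tumors stand at 2.11 to 3.23% and the spleens at 0.737 and 0.853%, while by reads the tumors at 0.456 to 0.763% overlap the spleens at 0.529 and 0.626%.

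The read share depended on single receptors, members and others. With the top 10 clonotypes of every library left out it was 0.891% and 0.984% in the treated tumors, 0.752% and 0.734% in the distant tumors and 0.535% and 0.632% in the spleens, so that every tumor stood above both spleens, by 0.257 points on average (exact permutation p = 0.133). A TRBV13-2/TRBJ1-5 clonotype of 15 residues with the cysteine at position 9 had 132 reads in treated tumor 2, 31.4% of that library's member reads. Without the most abundant member of each library, an alternative chosen after the data were seen, treated tumor 2 fell to 0.525% and distant tumor 2 stood at 0.547%, so the order within number 2 turned, and the tumor mean minus the spleen mean was -0.0225 points (exact permutation p = 0.933). Treated tumor 1 kept 0.696% and distant tumor 1 had 0.434%. The clonotype shares moved little when the same members were left out, to 2.89% and 3.21% in the treated tumors and 2.53% and 2.10% in the distant tumors.

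To see whether cysteine stood apart from the other residues, reads in clonotypes with each of the 20 amino acids at position 5 or later were compared by the quasi-likelihood test of edgeR, with p-values adjusted by Benjamini-Hochberg over the residues. On reads no residue passed the threshold of 0.05 in tumors against spleens, where 0% were called, or in treated against distant tumors, where 0% were called. The edgeR test had 1 and 2 residues at an unadjusted p under 0.05 in those comparisons, and DESeq2 called 0 in each, with 0 and 1 at an unadjusted p under 0.05. On the log2 scale cysteine differed by 0.11 for tumors over spleens (SE 0.14, adjusted p of edgeR 0.997). With the top 10 clonotypes of every library left out it was 0.51 (SE 0.10, adjusted p of edgeR 0.0644). For treated over distant tumors the log2 difference was 0.55 (SE 0.16, adjusted p of edgeR 0.369), and DESeq2 gave 0.48 with an adjusted p of 0.0943.

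Counting each clonotype once in place of its reads, edgeR called 7 of 20 residues between tumors and spleens, 35% of those tested, with 5 higher (25%) and 2 lower (10%) in the tumors. Cysteine rose by 1.74 on the log2 scale (SE 0.12, adjusted p of edgeR 0.00116), the largest change of the 20. The fit treats the 6 libraries as independent, although the series names 2 mice. A clonotype counts for several residues, so the residues overlap as well. The exact permutation test of the same cysteine share over libraries gave p = 0.0667, or 0.267 adjusted. Lysine, a basic residue, rose by 1.09 (SE 0.07, adjusted p of edgeR 0.00116), and its share of clonotypes was 10.8 to 13.1% in the tumors against 5.48 and 5.75% in the spleens. Histidine had a log2 fold change of 0.69, methionine 0.66 and arginine 0.10, each with an edgeR adjusted p of 0.0497, while threonine had -0.17 and glycine -0.04 with the same adjusted p. Leaving out 1 library at a time, an alternative added after the data were seen, cysteine and lysine were called by edgeR in all 6 fits. The number of residues called ran from 2 (without distant tumor 1, spleen 1 or spleen 2) to 10 (without treated tumor 2), with 3 without distant tumor 2, and the other 5 calls were lost when either distant tumor or either spleen was left out. Cysteine, methionine and isoleucine were the 3 rarest residues over the libraries. Methionine was in 1.56 to 2.42% of tumor clonotypes and in 1.22% of clonotypes in both spleens, and isoleucine, which edgeR did not call, was in 4.80 to 7.22% of tumor clonotypes and 5.44 and 5.51% of spleen clonotypes. In treated against distant tumors, 0% of residues were called with clonotypes counted once, 1 had an unadjusted edgeR p under 0.05, and the log2 difference of cysteine was 0.39 (SE 0.14, adjusted p of edgeR 0.503).

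**Figure D2:**
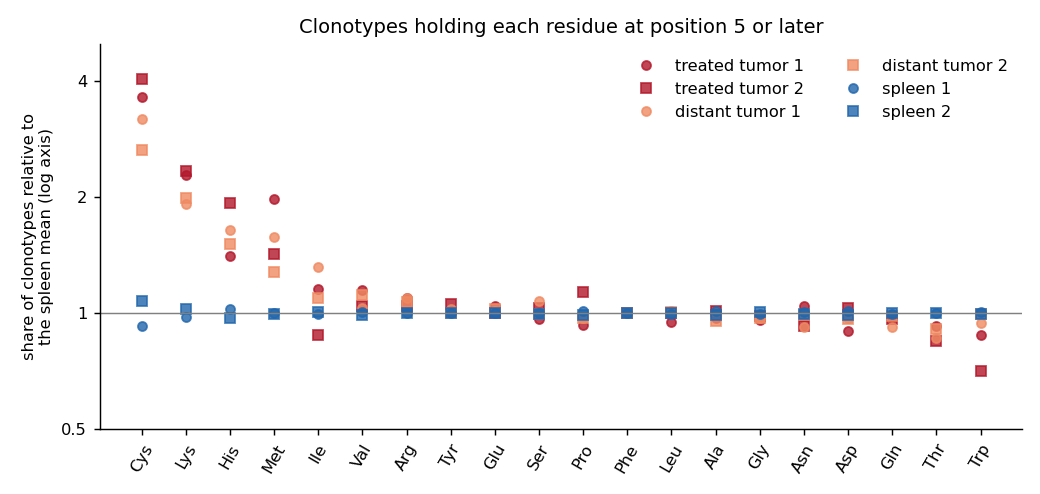
Share of eligible clonotypes with each residue at position 5 or later, divided by the mean of the 2 spleens (log axis), for the 6 libraries. Cysteine had the highest mean tumor ratio at 3.39, followed by lysine at 2.13, histidine at 1.63 and methionine at 1.57.

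Most members were seen in a single read. In treated tumor 1, 296 of the 325 members had 1 read, 16 had 2 to 9 reads and 13 had 10 or more. Members seen in 1 read made up 91.1% and 93.4% of members in the treated tumors, 89.2% and 92.8% in the distant tumors and 93.9% and 93.6% in the spleens. Among the other eligible clonotypes of the same libraries, that share was 75.6% and 80.3%, 71.4% and 68.5%, and 71.9% and 72.5%. The difference of 18.96 percentage points (SD 4.23 over 6 libraries) had the same sign in 6 of 6 libraries, with p = 0.0312 by an exact two-sided sign-flip permutation test, the smallest that 6 libraries can give, and 0.0391 adjusted over the 5 comparisons of members with others. The series names 2 mice, so the 6 libraries are not independent units in any of these 5 comparisons.

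Members also had fewer reads each. Their mean was 1.87 and 1.98 reads in the treated tumors, 1.47 and 1.23 in the distant tumors, and 1.09 in each spleen, while the other clonotypes averaged 7.44 and 8.59, 8.33 and 4.53, and 1.52 and 1.49 reads. The difference was -3.86 reads (SD 2.95 over 6 libraries, exact sign-flip permutation p = 0.0312, adjusted 0.0391). The members were lower in 6 of 6 libraries, by far more in the tumors, where a few clones that were not members held up to 15201 reads, than in the spleens, where no clonotype exceeded 411 reads.

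The excess of members in tumors was present among clonotypes of 1 read and of 2 to 9 reads. Of clonotypes seen in 1 read, 2.83 to 3.74% were members in the tumors, against 0.961 and 1.10% in the spleens. Of those with 2 to 9 reads, 1.19%, 1.85%, 1.23% and 0.577% were members in treated tumors 1 and 2 and distant tumors 1 and 2, against 0.162% and 0.204% in the spleens. Of those with 10 or more reads, members were 13 of 1336, 2 of 618, 6 of 1081 and 1 of 598 in the same order of tumors. The spleens had 0 of 230 and 0 of 281 such clonotypes, which allows shares of up to 1.30% and 1.07%, so no difference between tissues was detectable for the largest clones. Without 1-read clonotypes the clonotype share was 0.491 to 1.11% in the tumors against 0.160 and 0.201% in the spleens.

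**Figure D3:**
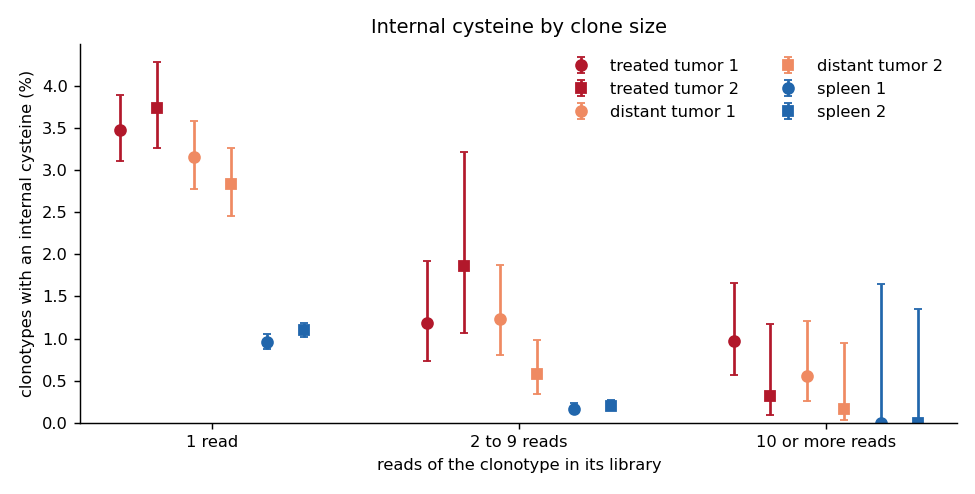
Share of eligible clonotypes with an internal cysteine, in percent, by the clonotype's reads in its library, with 95% Wilson intervals. In the class of 1 read the tumors stand at 2.83 to 3.74% and the spleens at 0.961 and 1.10%, and in the class of 10 or more reads both spleens are at 0.

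Most of the larger members were private. Of the 22 members with 10 or more reads in any library, 21 were in 1 library only. The matching share of other clonotypes of that size is not given here, so this count does not set members apart from them. The TRBV13-2/TRBJ1-5 clonotype with 132 reads took 0.240% of the eligible reads of treated tumor 2 (95% Wilson interval 0.202 to 0.284%) and ranked 59 among its clonotypes, with 0 reads in the other 5 libraries. A TRBV13-1/TRBJ1-1 clonotype of 15 residues, also with its cysteine at position 9, had 56 reads in treated tumor 2 (rank 191) and 0 elsewhere. In treated tumor 1, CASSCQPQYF had 41 reads (rank 312), a TRBV26/TRBJ1-4 clonotype of 15 residues with the cysteine at position 6 had 31, a TRBV13-3/TRBJ1-3 clonotype of 15 residues with cysteines at positions 6 and 8 had 26 and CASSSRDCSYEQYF had 25, all with 0 reads in every other library. A count of 0 allows up to 0.00545% of eligible reads in treated tumor 2 and up to 0.00730% in distant tumor 2, the library with the fewest reads.

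The distant tumors had smaller leading members. In distant tumor 1, a TRBV26/TRBJ2-2 clonotype of 16 residues with the cysteine at position 15, next to the closing phenylalanine, had 18 reads. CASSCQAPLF and a TRBV15/TRBJ2-3 clonotype of 15 residues with the cysteine at position 8 had 15 each, and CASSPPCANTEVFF had 14. In distant tumor 2, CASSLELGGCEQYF had 13 reads, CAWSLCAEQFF 8, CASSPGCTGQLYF (TRBV17/TRBJ2-2) 5 and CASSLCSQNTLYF (TRBV12-2/TRBJ2-4), which tied with 2 further members, 4. The spleens had no member above 5 reads. In spleen 1 a TRBV13-2/TRBJ2-7 clonotype of 14 residues with the cysteine at position 10 had 5 and a TRBV13-2/TRBJ2-5 clonotype of 18 residues had 4, while 7 members tied at 3 reads, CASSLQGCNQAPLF (TRBV12-2/TRBJ1-5) and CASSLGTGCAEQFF (TRBV12-2/TRBJ2-1) among them. In spleen 2, 5 members tied at 4 reads, among them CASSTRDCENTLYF (TRBV15/TRBJ2-4), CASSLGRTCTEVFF (TRBV16/TRBJ1-1) and clonotypes of 16 residues with TRBV12-1/TRBJ2-4 and TRBV16/TRBJ2-4. The 4 leading members together held 20.2% and 47.4% of member reads in the treated tumors, 16.8% and 12.6% in the distant tumors, and 2.99% and 1.93% in the spleens.

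Members were found again in other libraries less often than the other clonotypes. Of the 2185 distinct members, 2169 were in 1 library, 13 in 2, 3 in 3 and 0 in 4 or more. The share found in another library of the same number was 1.23% and 2.36% in the treated tumors, 2.39% and 2.58% in the distant tumors and 0.868% and 0.263% in the spleens. For the other clonotypes it was 9.41% and 10.5%, 12.5% and 17.2%, and 2.07% and 1.84%. The difference was -7.31 points (SD 5.17 over 6 libraries, lower in 6 of 6, exact sign-flip permutation p = 0.0312, adjusted 0.0391). A clonotype shared by libraries of a number counts in each of them, so the 6 differences are linked and the p-value does not rest on 6 independent units. With 1-read clonotypes left out the difference was -15.97 points (8.40% against 24.4%, exact sign-flip permutation p = 0.0312), and members then still had fewer reads, 6.82 on average against 18.6. The part of clone size in this difference was not tested.

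Only 3 members were in both tumors of number 1 and 4 in both tumors of number 2, while 1 was in both spleens. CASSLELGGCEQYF had 3 reads in treated tumor 2, 1 in distant tumor 1 and 13 in distant tumor 2. The same TRBV16/TRBJ2-7 receptor with arginine in place of the cysteine, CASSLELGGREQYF (substitution R10C, the abundant clonotype's residue first and positions counted from the first cysteine), had 2172, 4461 and 2494 reads in those libraries. A TRBV14/TRBJ1-6 member of 15 residues had 6 reads in treated tumor 2, 1 in distant tumor 1 and 1 in spleen 1. It differed by F5C from a clonotype that had 356 reads in treated tumor 2, 192 in distant tumor 1 and 236 in spleen 1, where no eligible clonotype had more. A TRBV29/TRBJ2-7 member of 14 residues had 1 read in treated tumor 1, 2 in distant tumor 1 and 1 in spleen 2, and differed by F5C from a clonotype with 171 reads in treated tumor 1, 41 in distant tumor 1 and 13 in spleen 2. The members shared by 3 libraries were therefore each 1 residue away from a more abundant clonotype of the same libraries.

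The remaining named members in both tumors were of few reads. For number 1, a TRBV5/TRBJ2-7 member of 15 residues had 1 read in treated tumor 1 and 2 in distant tumor 1, and differed by F11C from a clonotype with 194 and 83 reads. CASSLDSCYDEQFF (TRBV3/TRBJ2-1) had 1 read in each, and no abundant clonotype was 1 residue away. For number 2, a TRBV20/TRBJ1-2 member of 13 residues had 2 reads in treated tumor 2 and 4 in distant tumor 2, beside 585 and 661 reads of the clonotype it differed from by G6C, which had 156 in spleen 2. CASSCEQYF (TRBV29/TRBJ2-7) had 3 and 1 reads, beside 162 and 107 reads of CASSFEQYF (F5C), which had 27 in spleen 2.

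Such close variants were counted for all members. A member was called a 1-residue variant when a clonotype of the same TRBV, TRBJ and length in the same library, with at least 10 times its reads, differed from it at 1 residue. This held for 80 and 43 members in the treated tumors (24.6% and 20.3%), 47 and 28 in the distant tumors (18.7% and 14.4%), and 10 and 7 in the spleens (2.17% and 0.920%). Among the other clonotypes the share was 31.1% and 36.8%, 27.9% and 18.1%, and 1.03% and 1.05%, so in the tumors it was higher outside the members than in them. Of the 215 such member rows, 183 had the cysteine as the changed residue. Where the abundant clonotype has no internal cysteine, a difference of 1 residue must fall on the cysteine, so this count is largely fixed by the definition. In 172 of the 183 the abundant clonotype had a residue whose codons include one that is a single base change from a cysteine codon. The residue was tyrosine in 48, phenylalanine in 45, glycine in 36, serine in 23, tryptophan in 13 and arginine in 7. The TRBV26/TRBJ2-2 member of 16 residues was one of the 172, as a Y15C variant of a clonotype with 373 reads. So was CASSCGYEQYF (TRBV3/TRBJ2-7, 5 reads in treated tumor 2), as an F5C variant of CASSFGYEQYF with 55 reads. Tyrosine and glycine are common in any case, in 78.9 to 83.0% and 73.9 to 75.2% of tumor clonotypes at position 5 or later. The 172 were not set against a background share.

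The clonotype share was as large without these variants, at 3.17% and 4.04% in the treated tumors, 2.85% and 2.20% in the distant tumors, and 0.728% and 0.855% in the spleens. Leaving out every clonotype within 2 residues of a 10 times more abundant one, a choice made after the data were seen, gave 2.41 to 4.90% in the tumors against 0.782 and 0.956% in the spleens. The read shares went the other way: the tumor mean minus the spleen mean was -0.0164 points without the 1-residue variants (exact permutation p = 0.933) and -0.106 points without those within 2 residues (exact permutation p = 0.467). CDR3 that began with the 3 residues most common for their TRBV gene made up 65.1 to 69.5% of members in the tumors against 74.8 and 74.2% in the spleens, against 75.1 to 81.7% and 94.1 and 93.5% of the other clonotypes. Among clonotypes with that usual start, the member share was 1.79 to 2.81% in the tumors against 0.587 and 0.679% in the spleens. The part of sequence errors in single-read members was not tested.

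Most internal cysteines lay at positions 5 to 10. At position 5 the treated tumors had 22.8 and 29.7 per 100 members, the spleens 21.3 and 20.5 and the distant tumors 14.7 and 15.98. It was the only position at which the 3 groups did not overlap, and no test was made. The treated values rested partly on single families. Of the cysteines at position 5, 29 of 74 in treated tumor 1 were in TRBV15 members. In treated tumor 2, 23 of 63 were in TRBV14/TRBJ1-6 members. Over all libraries 459 members had a cysteine at position 5, 253 at position 6, 387 at position 7, 357 at position 8, 351 at position 9 and 182 at position 10, and no later position had more than 68. Position 5 is usually the last residue that the V gene can supply, and positions 6 to 10 cover the tip of the loop in CDR3 of these lengths. The cysteine stood within 2 positions of the middle of the CDR3 in 68.4 to 73.7% of members of every library. It stood next to the closing residue in 5.66 to 10.8%. At positions 6 or 7, where hydrophobic residues are known to favour self-reactivity, it was found in 32.9% and 20.3% of members in the treated tumors, 31.5% and 32.0% in the distant tumors and 29.3% and 28.1% in the spleens.

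**Figure D4:**
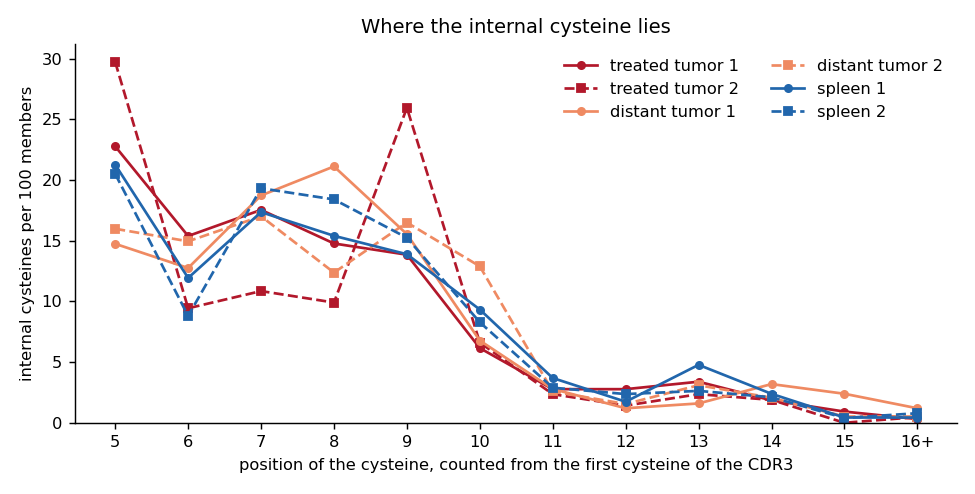
Internal cysteines at each CDR3 position per 100 members of a library, counted from the conserved first cysteine, with positions from 16 on joined. Treated tumor 2 stands apart at position 5 with 29.7 and at position 9 with 25.9, and the other libraries run from 14.7 to 22.8 and from 13.8 to 16.5 there.

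Treated tumor 2 differed from the other libraries at positions 5 and 9 in families of related receptors. There, 13 members, the member of 132 reads among them, shared TRBV13-2, TRBJ1-5, the length and the cysteine at position 9, and held 144 reads in all. A further 27 of its 34 TRBV14 members used TRBJ1-6, as did the clonotype of 356 reads named above, and 23 of the 27 had the cysteine at position 5. Treated tumor 1 also had a concentration at position 5. There, 29 of 38 TRBV15 members had the cysteine at position 5, 6.13% of TRBV15 clonotypes. That share was 0.437 to 1.28% in the other tumors and 0.478 and 0.414% in the spleens. TRBJ1-1 had 24 such members in treated tumor 1, against 2 in treated tumor 2 and 2 and 0 in the distant tumors. Whether such receptors have a common source was not tested, and they are not counted as independent observations. Without the 13 alone, the member share of treated tumor 2 was 3.04% of clonotypes. The TRBV14/TRBJ1-6 members there and the TRBV15 members of treated tumor 1 were not left out. The treated shares without all of these families are therefore not given.

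Members with more than 1 internal cysteine were few, with 38 rows holding 2 and 1 row holding 3. The TRBV13-3/TRBJ1-3 member with 26 reads led these in the treated tumors. A TRBV12-1/TRBJ2-1 member of 15 residues with cysteines at positions 5 and 9 had 1 read in distant tumor 1, and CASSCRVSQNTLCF (TRBV15/TRBJ2-4, positions 5 and 13) had 2 reads in spleen 1. The residue before the cysteine was most often glycine (mean 22.7% of internal cysteines over the libraries) or serine (19.9%), followed by aspartate (9.20%) and leucine (9.10%). The residue after it was most often glycine (14.0%) or alanine (11.1%).

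Members were slightly longer than the other clonotypes. Their mean CDR3 length was 14.4 and 14.4 residues in the treated tumors, 14.2 and 14.1 in the distant tumors and 14.2 in each spleen, against 13.9 to 14.0 in the others. The difference was 0.339 residues (SD 0.0846 over 6 libraries, higher in 6 of 6, exact sign-flip permutation p = 0.0312, adjusted 0.0391), but it was 0.0440 with p = 0.812 when 1-read clonotypes were left out. A longer CDR3 also has more positions at which the rule can find a cysteine. The share with a gene of the TRBJ2 cluster was 66.8%, 60.4%, 65.3%, 71.1%, 74.6% and 71.6% of members in treated tumors 1 and 2, distant tumors 1 and 2 and spleens 1 and 2. The mean difference from the other clonotypes was 0.956 points (SD 5.51, higher in 4 of 6 libraries, exact sign-flip permutation p = 0.688), and its sign turned without spleen 1 (-0.158).

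The V genes differed in how often their clonotypes were members. The ranking covered the 19 of 23 TRBV genes with at least 100 eligible clonotypes in every library. TRBV14 was highest, with members making up 3.68% and 9.69% of its clonotypes in the treated tumors, 5.30% and 6.20% in the distant tumors and 2.22% and 2.62% in the spleens. TRBV15 followed with 8.03% and 2.62%, 5.31% and 2.24%, and 1.16% and 1.31%, then TRBV4 with a mean of 2.68% and TRBV29 with a mean of 2.61% over the libraries. In treated tumor 1, 29 of the 38 TRBV15 members had the cysteine at position 5. The lowest means were 1.39% for TRBV13-1, 1.43% for TRBV31 and 1.53% for TRBV2. Every tumor stood above both spleens in 17 of the 19 genes, TRBV17 and TRBV31 being the exceptions, chosen for naming after their values were seen. For comparison, 30% of the 20 residues had every tumor above both spleens by clonotypes. The genes are parts of the same clonotypes, and over all genes the member shares did not overlap either (2.11 to 3.23% against 0.737 and 0.853%). The genes are therefore not separate observations of the difference. With each library weighted to the same TRBV usage, the member share was 2.10 to 3.08% in the tumors against 0.750 and 0.868% in the spleens.

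Among TRBJ genes, TRBJ1-6 had the highest mean share of members, 3.22% of its clonotypes over the libraries, with 2.98% and 6.38% in the treated tumors, 2.96% and 4.26% in the distant tumors and 1.499% and 1.26% in the spleens. In treated tumor 2, 27 of its 38 members used TRBV14. Without TRBV14 clonotypes the TRBJ1-6 mean was 2.12%, with 2.59% in treated tumor 2. TRBJ1-5 came next with a mean of 3.04%, which rested on treated tumor 2, where 13 of 105 clonotypes (12.4%) were members, all of the TRBV13-2 family described above. It had 3.57% in treated tumor 1, 1.35% and 0% in the distant tumors (0 of 151 clonotypes in distant tumor 2), and 0.470% and 0.484% in the spleens. TRBJ1-1 had the lowest mean at 1.29% and TRBJ1-2 the next at 1.42%. Every tumor stood above both spleens in 11 of 12 TRBJ genes, with TRBJ1-5 the exception. For comparison, this held for 30% of the 20 residues by clonotypes. The TRBJ genes are also parts of the same clonotypes, whose member shares over all genes did not overlap. They are therefore not separate observations of the difference.

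The germline ends of the V genes show which of them bring a codon beginning with T to position 5. These ends were read from GENCODE M21 transcripts (assembly GRCm38), which paired all 35 TRBV and TRBJ symbols, and run 5′ to 3′ from the codon of the conserved cysteine. Capitals mark the codon of position 5.
TRBV14: tgtgccagcagtTTCt
TRBV15: tgtgccagcagtTTAgc
TRBV4: tgtgccagcagcTAAga
TRBV29: tgtgctagcagtTTAtc
TRBV13-1: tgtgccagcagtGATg
TRBV31: tgtgcctggagtCT
TRBV2: tgtgccagcagcCAAga
All of these genes lie on mouse chromosome 6, TRBV14 at chr6:41135145-41135616 on the plus strand. Cysteine codons are TGT and TGC, and the TTC of TRBV14 was the only complete germline codon at this position, among the 23 genes, a single base change from one. The germline base after the fourth codon was T in 6 of the 23 genes: TRBV14, TRBV15, TRBV4 and TRBV29, the 4 highest by member share, with TRBV3 and TRBV16.

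The 6 genes held most of the cysteines at position 5. In them, 2.21% and 2.63% of clonotypes had a cysteine at position 5 in the treated tumors, 0.747% and 0.856% in the distant tumors and 0.402% and 0.462% in the spleens. In the other genes it was 0.143% and 0.279%, 0.205% and 0.109%, and 0.0657% and 0.0584%. The ratios ran from 3.64 in distant tumor 1 to 15.5 in treated tumor 1, with 6.12 and 7.91 in the spleens. In treated tumor 1, TRBV15 alone gave 29 of the 62 such clonotypes of the 6 genes. The group of genes was formed after the member shares were seen, so these values are a description. At later positions the 6 genes and the others were close, with members at 1.89 to 2.27% and 1.69 to 2.38% of clonotypes in the tumors and 0.627 to 0.772% and 0.563 to 0.640% in the spleens.

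The pattern at position 5 was also present away from abundant clones. Without clonotypes within 2 residues of a 10 times more abundant one, the ratio was 11.7 and 8.31 in the treated tumors, 3.38 and 6.15 in the distant tumors and 5.52 and 8.51 in the spleens. In TRBV14 clonotypes outside TRBJ1-6, members were 3.72% and 3.91% in the treated tumors, 4.81% and 4.39% in the distant tumors and 1.48% and 2.12% in the spleens. In TRBV14, 90 of 163 member rows (55.2%) had the cysteine at position 5, against 42.5% in TRBV15, 49.4% in TRBV4 and 40.6% in TRBV29, and 8.79% in TRBV13-1.

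**Figure D5:**
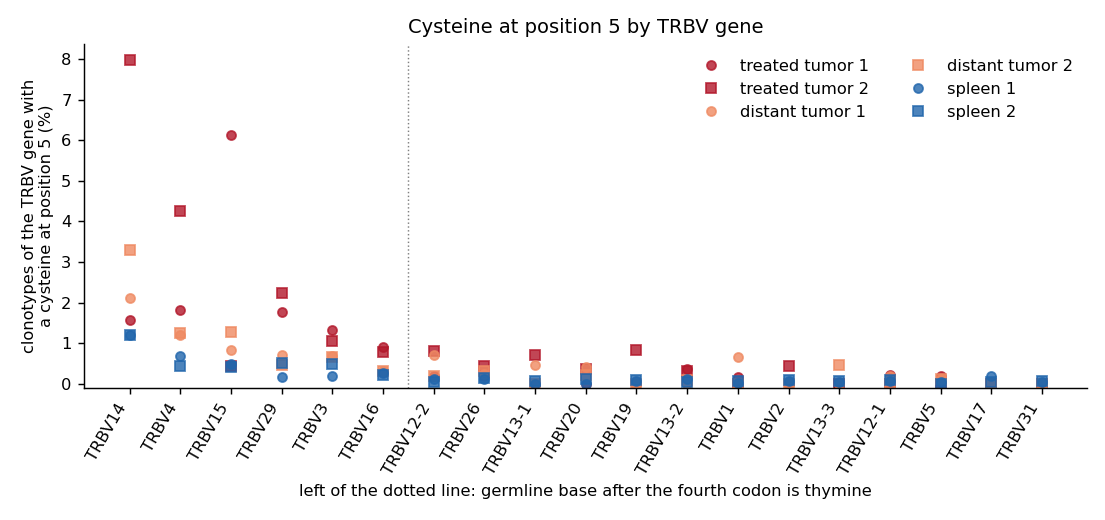
Share of the eligible clonotypes of each of the 19 ranked TRBV genes with a cysteine at position 5, in percent, for the 6 libraries. The 6 genes left of the dotted line have T as the germline base after the fourth codon; over these 6 together the share is 0.402 to 2.63%, and over the other genes 0.0584 to 0.279%.

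The D genes offer no cysteine codon themselves. They are shown because the middle of the loop, where most internal cysteines lay, comes from them and from added nucleotides. Capitals mark the only TG pair, the start of a cysteine codon.
TRBD1: gggacagggggc
TRBD2: gggacTGggggggc
Neither D gene held TGT or TGC in any forward frame (0 in each), and no TRBJ gene had a cysteine codon in its reading frame before its phenylalanine. TRBD2 can join only TRBJ2 genes by deletion, and the TG in it is preceded by GAC, a codon of aspartate. Aspartate stood before the cysteine in 14.6%, 6.98%, 8.33%, 8.70%, 10.5% and 9.58% of internal cysteines of TRBJ2 members, and in 7.02%, 5.88%, 12.5%, 10.7%, 5.04% and 5.88% of those of TRBJ1 members, in treated tumors 1 and 2, distant tumors 1 and 2 and spleens 1 and 2. The TRBJ2 value was the higher in both treated tumors and both spleens and the lower in both distant tumors. In the same order, the TRBJ2 values rest on 32, 9, 14, 12, 37 and 53 cysteines. The TRBJ1 values rest on only 8, 5, 11, 6, 6 and 13, and no test was made.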

How the data were processed

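Total RNA was reverse transcribed, an adaptor was ligated to the cDNA, TCRβ was amplified by PCR from the constant region and sequenced on an Illumina MiSeq, per the labels' protocols. The tool that assigned genes and CDR3 is not named in the labels or files used here. The authors deposited read counts per TRBV, TRBJ and CDR3, with a percent of reads, which matched the deposited counts to within 0.005 points. No molecular identifiers are described.

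Shares were computed over unmarked CDR3 from C to F or W. Groups were compared by exact permutation of libraries, members with other clonotypes by exact sign flips, and the 20 residues with edgeR 4.0.16 (quasi-likelihood, library size set to eligible reads) and DESeq2 1.42.0. The permutation test, the sign flips and edgeR were tested on simulated data, and DESeq2 was not. Germline ends came from GENCODE M21. The members named are the 4 with most reads in each library, those in 3 or more libraries, up to 3 in both tumors of a number, and the leading one per tissue with 2 or more internal cysteines. The TRBV genes named are the 4 highest and 3 lowest, and the TRBJ genes the 2 highest and 2 lowest. Members and lists were chosen with earlier results of these data known. Alternatives left out 1-read clonotypes, close variants, abundant clonotypes or single libraries, or changed depth, clonotype definition, TRBV weighting or the tool.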

Additional observations from a re-analysis of the deposited data

Results flagged for a closer look

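The share of members found again in another library of the same number was 1.23% in treated tumor 1 (4 of 325), below the other 3 tumors, which stood between 2.36% and 2.58%. Those shares rest on few members as well, 5 of 212 in treated tumor 2 and 6 of 251 and 5 of 194 in the distant tumors. It was the only 1 of 14 groups of 4 or 6 libraries with such a far value. Chance gives about 1 in 20 for each group, so 1 among 14 groups is near what chance gives.

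Sequences with a stop mark took no part in the comparisons. Of those that ran from C to F or W, the share with an internal cysteine was 18.8% in treated tumor 1 (223 of 1185), 26.1% in treated tumor 2 (161 of 616) and 19.5% in distant tumor 2 (131 of 671), each above both spleens with 17.3% and 17.6%. Distant tumor 1 had 16.8%. No test was made of these values.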

How the results depend on the processing

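By clonotypes, tumors stayed above spleens in all 6 fits that left out 1 library (differences of 1.72 to 2.09 points) and in all 13 other settings (0.505 to 2.59). The lowest, 0.505, was for clonotypes of 10 or more reads alone, where both spleens had 0 members. In that setting the difference could not be negative, by clonotypes or by reads. Permuting within the replicate number left the difference itself unchanged. By reads, the difference of tumors from spleens turned negative without 1-residue variants (-0.0164), without clonotypes within 2 residues of a more abundant one (-0.106) and without the most abundant member of each library (-0.0225), and ran from 0.0105 to 0.119 without 1 library. It rose from 0.0589 to 0.257 without the 10 most abundant clonotypes, to 0.240 with clonotypes of 10 or more reads alone, to 0.154 without 1-read clonotypes and to 0.114 at equal TRBV usage. The treated mean stayed above the distant mean in every setting run, by 0.1199 to 0.299 points of reads and 0.287 to 1.57 points of clonotypes, but none of these designs can give a p under 0.05.

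Leaving out 1 library, members against others ran from 17.9 to 20.1 points for 1-read clonotypes, from -4.56 to -3.26 for mean reads, from 0.319 to 0.359 for length and from -8.53 to -5.84 points for clonotypes found again, where 5 libraries cannot give an exact permutation p below 0.0625. The TRBJ2 difference ran from -0.158 (without spleen 1) to 2.98, and the length difference was 0.0440 without 1-read clonotypes. In edgeR, tumors against spleens had 7 residues called with clonotypes counted once and 1 without the 10 most abundant clonotypes, and 0 to 1 when leaving out 1 library (1 without distant tumor 2, for treated against distant tumors too, with a range of 0 to 1). The cysteine log2 fold change for tumors over spleens was 1.74 with clonotypes counted once and 0.51 without the 10 most abundant clonotypes, and ran from -0.00205 (without spleen 1) to 0.24 without 1 library. With clonotypes counted once, leaving out 1 library gave 2 to 10 residues called and cysteine log2 fold changes of 1.64 to 1.85. The cause was not tested.

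The titles number the libraries 1 and 2 and the series names 2 mice, but no label ties a number to a mouse. Over the 20 residues, deviations of same-numbered libraries correlated at 0.328 between treated and distant tumors, -0.378 between treated tumors and spleens and -0.195 between distant tumors and spleens, so the number was not used for pairing in the main tests. With the replicate number as a block, edgeR called 0 residues in both comparisons, cysteine had log2 fold changes of 0.12 (adjusted p = 0.998) for tumors over spleens and 0.56 (adjusted p = 0.256) for treated over distant tumors, and permuting within the number gave exact p = 0.778 and 0.5 for read shares and 0.111 and 0.5 for clonotype shares. On reads the block changed no call. With clonotypes counted once it left 2 of the 7 residues called by edgeR, cysteine (log2 fold change 1.74, adjusted p = 0.00964) and lysine (1.09, adjusted p = 0.00964).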

Other observations

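Sequences with a stop or frame mark were not eligible. An internal cysteine was in 16.8 to 26.1% of those with a stop mark that ran from C to F or W, against 0.737 to 3.23% of unmarked clonotypes, and both spleens had it (643 of 3717 and 983 of 5574). In sequences with a frame mark the share was 3.804 to 5.77% over the tumors, and 5.89% and 6.11% in the spleens, so every tumor stood below both spleens there, unlike among unmarked clonotypes. These values were not tested.

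A cysteine at position 4 with none later was in 738 eligible rows, which the rule leaves out, beside the 459 members with one at position 5. A cysteine at positions 2 to 4 with none later was in 14127 rows, and 12400 of them used TRBV1, whose germline sequence, tgcacctgcagtGCAga, encodes a cysteine at position 3.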
